A study of Mus musculus with 20 samples.

Results

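The nuclear genes of respiratory complexes II to V, with cytochrome c, were described in hearts of young mice that received Zeb2os, a long noncoding RNA made antisense to the transcription factor gene Zeb2. Members were the genes found in both tables deposited by the authors under the names Sdha to Sdhd, Cyc1, Cycs, or names starting with Uqcr, Cox4 to Cox8, or Atp5. Names of pseudogenes and of opposite-strand transcripts were left out. The choice gave 49 of 26214 genes, of which 4 belong to complex II, 9 to complex III, 18 to complex IV and 17 to complex V, and 1 is cytochrome c. Of these 49 members, 46 had a mean normalised count of 50 or more in each table. A p-value was listed for 48 with hTNNT2, where Cox8c was at a mean of 0, and for 49 with CMV. The mitochondrially encoded subunits of these complexes were not analysed here.

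The study injected AAV9, a viral vector that reaches heart muscle well, into the retro-orbital vein of uninjured wild-type FVB/NRj mice and sequenced total RNA of the heart apex at postnatal day 28. The 4 groups held 5 mice each, 20 in all. They were hTNNT2 Zeb2os (3 males), hTNNT2 control (0 males), CMV Zeb2os (1 male) and CMV control (2 males), and the labels do not say what the control vector carried. The hTNNT2 promoter, that of cardiac troponin T, limits the cargo mainly to cardiomyocytes, and the CMV promoter is active in most cell types. All mice carried AAV9 and none had a heart injury. Only the authors' own comparison of Zeb2os with control was used for each promoter, with no value of a single mouse, so each level given here is a mean over 10 libraries. Zeb2os itself had a log2 fold change of 4.53 (SE 0.083) with hTNNT2 and 3.66 (SE 0.071) with CMV in the authors' deposited tables.

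Complex II, succinate dehydrogenase, feeds electrons from the citric acid cycle into the ubiquinone pool. Complex III passes them to cytochrome c, complex IV hands them to oxygen, and complex V, the ATP synthase, uses the proton gradient to make ATP. Heart muscle is packed with mitochondria, and it makes muscle forms of some complex IV subunits beside the forms found in most tissues.

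The members were among the most abundant transcripts of the apex. Their median rank by mean count lay at percentile 98.1 of the tested genes in the authors' hTNNT2 table and 98.0 in the CMV table. Together they took 2.45% of the summed mean counts in either table. A mean count of 10000 or more was listed for 34 members with hTNNT2 and 30 with CMV, against 3.38% and 2.80% of all tested genes. The 2 tables were normalised separately, and mean counts were higher in the hTNNT2 table by a median ratio of 1.15 for the members and 1.16 for all genes at a mean count of 50 or more, so levels are compared only within a table.

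Levels per kilobase of transcript, from the authors' deposited mean counts, ordered the subunits within each complex. In complex V, Atp5b, the catalytic beta subunit of the F1 head, was highest, at 108777 mean counts per kilobase with hTNNT2 and 93136 with CMV. In complex IV it was Cox4i1, the common form of subunit 4, at 77396 with hTNNT2 and 66986 with CMV. In complex III it was Uqcrh, the hinge protein, at 38888 and 33635 mean counts per kilobase with hTNNT2 and CMV. In complex II it was Sdhb, the iron-sulphur subunit, at 22769 and 19821 mean counts per kilobase with hTNNT2 and CMV. The top gene of each complex depended on the length used, an alternative chosen after the data were seen. Per kilobase of all exons, Atp5a1 (64449), Cox6b1 (40554), Uqcrfs1 (21084) and Sdha (14589) were highest with hTNNT2. The same genes were highest with CMV. Per kilobase of transcript, medians of the complexes lay close together with hTNNT2. They were 16637 mean counts for complex II, 21084 for III, 20131 for IV without its testis forms and 23496 for V. With CMV the corresponding medians were 14202, 18035, 18028 and 20330. Cycs, the mobile electron carrier between complexes III and IV, was far below these, at 822 with hTNNT2 and 683 with CMV. Its transcript, 3123 bases long, shared 28.5% of its stretches of 50 bases with other annotated genes, so its level is uncertain.

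**Figure D1:**
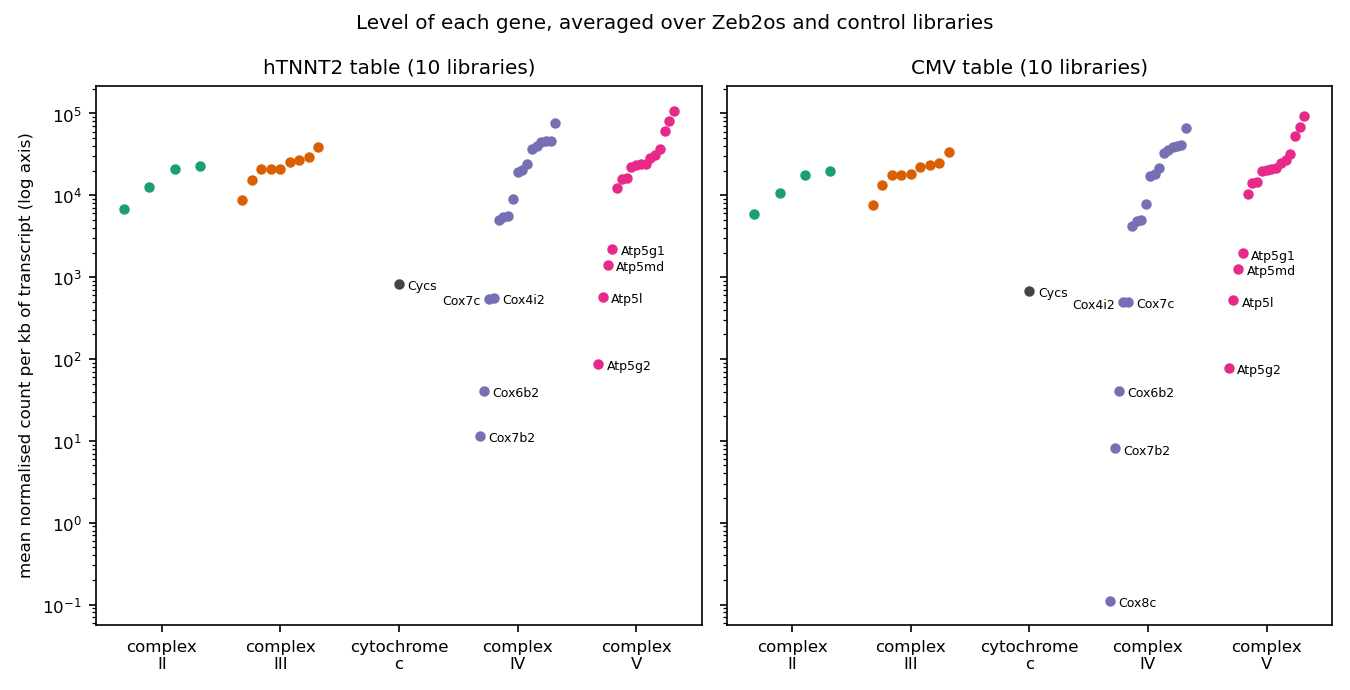
Mean normalised count per kilobase of transcript (log axis) of each member by complex, with hTNNT2 on the left and CMV on the right, each point being a gene averaged over Zeb2os and control libraries. Most members lie in a band that begins near Cox7a2l and ends at Atp5b, while Cycs, Cox7c, Cox4i2, Atp5g1, Atp5md, Atp5l and Atp5g2 lie well below it and the testis forms Cox6b2 and Cox7b2 lie lower still.

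Complex IV has muscle and ubiquitous forms of subunits 6a, 7a and 8, and the muscle form was the more abundant in all 3 pairs. Cox6a2 (chr7:128205435-128206387, minus strand, GRCm38) had 20131 mean counts per kilobase with hTNNT2 and 18028 with CMV. Its ubiquitous partner Cox6a1 (chr5:115345642-115348981, minus strand) had 5400 with hTNNT2 and 4905 with CMV, which gave ratios of 3.73 and 3.68. Cox7a1 (chr7:30184144-30186078, plus strand) had 45083 mean counts per kilobase with hTNNT2 and 41780 with CMV. Cox7a2 (chr9:79755361-79759878, minus strand) had 19536 and 17201 with hTNNT2 and CMV, and the ratios were 2.31 and 2.43. The widest gap was in subunit 8, where Cox8b (chr7:140898945-140900446, minus strand) had 36651 and 32599 mean counts per kilobase with hTNNT2 and CMV. Cox8a (chr19:7215153-7217616, minus strand) had 5598 and 4982, and the ratios were 6.55 and 6.54. Dividing by the length of all exons in place of 1 transcript, an alternative chosen after the data were seen, gave hTNNT2 ratios of 4.58 for Cox6a, 2.43 for Cox7a and 7.37 for Cox8, and CMV ratios of 4.52, 2.56 and 7.36. No spread between mice stands behind these ratios.

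The promoter windows of the subunit 8 pair are shown because they differ in the letters they hold. Of the 49 members, 37 had a window in the RefSeq promoter table (GRCm38.p6, 250 bases before to 50 after a transcription start, 300 in all). The windows of Cox8b (chr7:140900397-140900696) and Cox8a (chr19:7217567-7217866) are written 5′ to 3′ on the strand of the gene, which is the minus strand for both. Capitals mark, in Cox8b, the E-box CAGCTG at positions -19 and 17 and TATAAA at position 5. In Cox8a they mark the letters CCGGAAG on the opposite strand, the core bound by ETS factors such as GABP, at positions -5 and 33, where position 1 is the first transcribed base.
Cox8b: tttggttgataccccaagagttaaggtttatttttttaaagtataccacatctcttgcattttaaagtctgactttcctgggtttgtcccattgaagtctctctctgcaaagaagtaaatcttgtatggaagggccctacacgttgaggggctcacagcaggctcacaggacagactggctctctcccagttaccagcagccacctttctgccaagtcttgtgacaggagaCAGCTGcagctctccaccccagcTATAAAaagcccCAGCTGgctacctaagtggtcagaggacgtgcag
Cox8a: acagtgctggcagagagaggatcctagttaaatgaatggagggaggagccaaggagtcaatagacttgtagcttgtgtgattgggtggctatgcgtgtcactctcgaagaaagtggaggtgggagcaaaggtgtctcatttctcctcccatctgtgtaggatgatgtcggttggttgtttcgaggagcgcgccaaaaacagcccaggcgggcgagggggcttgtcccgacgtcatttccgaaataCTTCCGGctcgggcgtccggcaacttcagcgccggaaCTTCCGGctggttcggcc

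Letters of the factors best known for respiratory genes were then counted on both strands of the 37 member windows and of 27025 promoter windows, 1 per gene. Only the first listed window of each gene was used. The NRF1 letters, GCGCA and GCGC with any base between them, were in 9 member windows (24.3%), against 4.78% of all windows. CCGGAAG was in 12 (32.4%), against 9.12%, and the ERR core AAGGTCA in 5 (13.5%), against 4.66%. At least 1 of these was held by 17 member windows (45.9%), against 17.2% of all. Of letters known from muscle genes, CAGCTG was in 2 (5.41%), against 16.1%, and the MEF2 letters, CTA and TAG with 4 bases of any kind between them, in 1 (2.70%), against 3.70%. TATAAA was in 4 member windows (10.8%), against 14.2%, and the YY1 letters AAGATGGC in 2 (5.41%), against 2.88%. CAGCTG reads the same on both strands, and the letters searched were allowed to overlap one another.

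All of the NRF1, GABP and ERR letters stood together in 2 member windows (5.41%), against 0.0555% of all windows. These were the windows of Atp5k, a small ATP synthase subunit, and of Sdhd, the smaller membrane anchor of complex II. Atp5k is a member that was not set to be named and was named after this was seen. The Sdhd window (chr9:50603800-50604099, minus strand) is shown as the example. Capitals mark the NRF1 letters at position -79, CCGGAAG on the opposite strand at -46 and AAGGTCA on the opposite strand at 37.
Sdhd: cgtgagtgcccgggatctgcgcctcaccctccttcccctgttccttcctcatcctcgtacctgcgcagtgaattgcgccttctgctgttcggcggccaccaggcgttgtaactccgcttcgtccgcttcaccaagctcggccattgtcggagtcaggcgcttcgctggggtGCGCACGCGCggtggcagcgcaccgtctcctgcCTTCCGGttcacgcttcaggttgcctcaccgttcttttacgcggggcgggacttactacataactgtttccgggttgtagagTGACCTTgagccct

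Other paralogous subunits were further apart than the muscle pairs. Cox4i1 exceeded Cox4i2, the form known from lung and oxygen-sensing cells, 139-fold with hTNNT2 and 136-fold with CMV per kilobase. Cox6b1 exceeded the testis form Cox6b2 by 1147-fold and 981-fold, and Cox7b exceeded the testis form Cox7b2 by 2102-fold and 2650-fold, with hTNNT2 and CMV. Cox8c, a further testis form, was listed at a mean count of 0 with hTNNT2 and 0.0513 with CMV in the authors' deposited tables. The 3 genes of the ATP synthase c ring, Atp5g1 to Atp5g3, encode the same mature protein. Atp5g3 exceeded Atp5g1 by 27.1-fold with hTNNT2 and 27.0-fold with CMV per kilobase, and Atp5g2 by 696-fold and 678-fold. Atp5g3 was not among the members set to be named and was named after its values were seen. The ratio to Atp5g1 depends on the transcripts chosen, 4715 bases for Atp5g1 and 723 for Atp5g3. Per kilobase of all exons, Atp5g3 had 20125 and Atp5g1 2147 with hTNNT2. Atp5g2 shared 87.4% of its stretches of 50 bases with other genes, so the ratio to it is uncertain.

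Cox7c, a small structural subunit of complex IV found in all tissues, was an exception among the common subunits, and here its sequence bears on the value. Its mean count was 296 with hTNNT2 and 269 with CMV in the authors' deposited tables. Gm12338, annotated as a processed pseudogene on chr11:75599763-75599954 (minus strand, GRCm38) and named after its values were seen, had 9901 with hTNNT2 and 8710 with CMV, or 33.4 and 32.4 times as many. All 192 bases of the Cox7c coding sequence (gene on chromosome 13) are present in Gm12338 with 0 mismatches, so reads inside it cannot be assigned to 1 gene by sequence. The shared coding sequence is printed below in lower case, 5′ to 3′, with the start codon first.
Cox7c: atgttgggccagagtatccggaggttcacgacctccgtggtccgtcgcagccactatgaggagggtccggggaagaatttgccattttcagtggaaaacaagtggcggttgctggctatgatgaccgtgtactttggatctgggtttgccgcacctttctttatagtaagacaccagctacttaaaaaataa

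With the rows of Cox7c and Gm12338 added together, the level was 18883 mean counts per kilobase of the Cox7c transcript with hTNNT2 and 16627 with CMV, in place of 548 and 497. The log2 fold change of Gm12338 was 0.019 (SE 0.074) with hTNNT2 and 0.041 (SE 0.059) with CMV in the authors' deposited tables, against -0.12 (SE 0.076) and -0.016 (SE 0.071) for Cox7c. The sources used here do not say how reads with several matches were treated. In all, 28 members shared at least 1 stretch of 50 bases with another annotated gene. Stretches were matched on both strands, so this count includes genes that overlap a member at its own place. Those sharing over 40% of such stretches were Atp5g2 (87.4%), Atp5l (84.8%), Cox7c (53.0%), Atp5o (50.3%), Atp5h (47.9%) and Uqcrb (43.4%), and their levels are uncertain for that reason. For Atp5o the gene sharing most was another annotated gene of the same name that overlaps it, not a distant copy. Atp5l and Atp5o, like Atp5md in the plot of levels, are members that were not set to be named and were named after their values were seen. Exons of 14 members overlapped those of another gene, Cox6a2 among them, and the sources used here give no strand setting for the counting.

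The comparison of Zeb2os with control asked whether expressing this RNA changes the uninjured heart. No member passed the authors' DESeq2 test at an adjusted p under 0.05, with 0 of 48 tested members for hTNNT2, where 0.0385% of all genes passed, and 0 of 49 for CMV, where 0.00469% passed. At an unadjusted p under 0.05 there were also 0 and 0 members, against 3.92% of all genes with hTNNT2 and 1.67% with CMV. Members' log2 fold changes ran from -0.12 to 0.14 with hTNNT2 and from -0.087 to 0.081 with CMV in the authors' deposited tables. The smallest member p-values there were 0.0577 with hTNNT2 and 0.0937 with CMV. The 95% intervals of all tested members included 0, and their outermost bounds were folds of 0.829 and 1.22 with hTNNT2 and of 0.871 and 1.15 with CMV. The deposited SE falls to a median of 0.0073 with hTNNT2 and 0.0054 with CMV at mean counts below 0.5. The deposited scale is thus not a plain ratio of counts. At mean counts of 200 to 1000 the median SE was 0.078 with hTNNT2 and 0.068 with CMV. At 10000 or more it was 0.072 and 0.054. Changes of low genes may be understated on this scale, and whether those of abundant genes are too was not tested. The fold bounds above hold on the deposited scale alone.

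**Figure D2:**
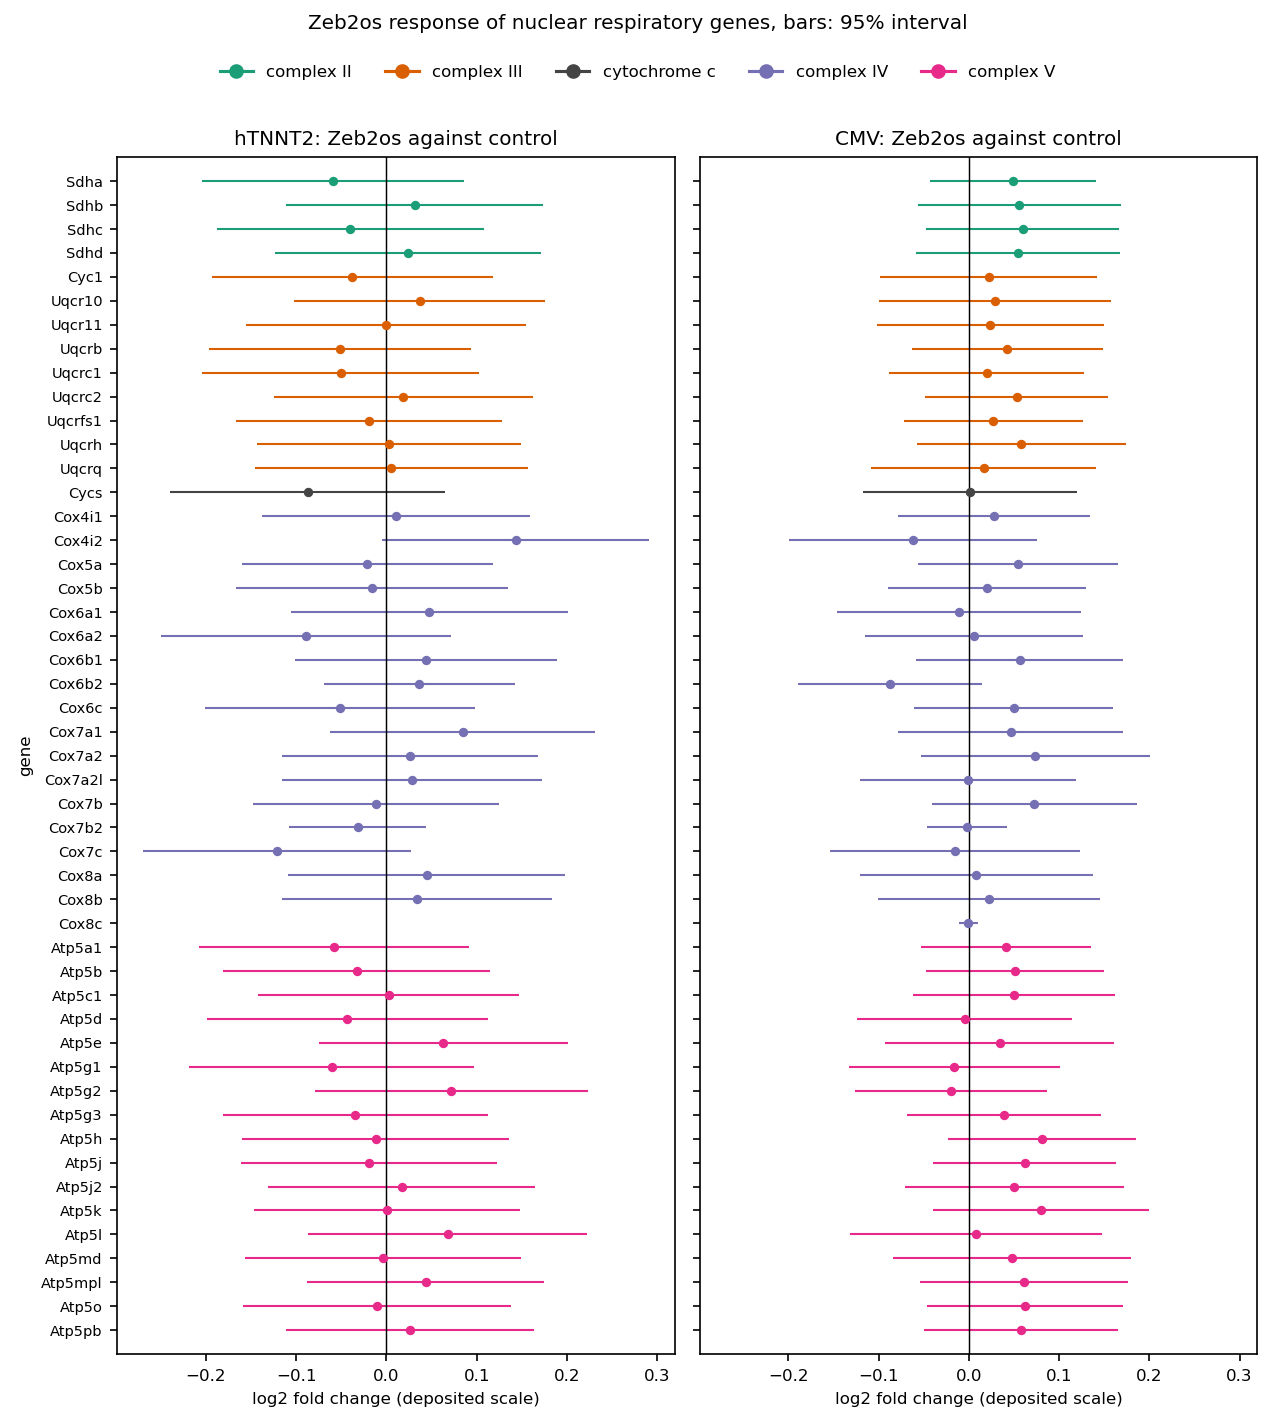
Log2 fold change of Zeb2os against control for each member, on the scale deposited by the authors, with hTNNT2 on the left and CMV on the right, points coloured by complex and bars giving the 95% interval. Every bar crosses 0, the hTNNT2 points spread to both sides, and 39 of 49 CMV points lie above 0.

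The members lay on both sides of 0 with hTNNT2 and mostly above it with CMV. With hTNNT2, 24 members had a log2 fold change above 0 and 24 below, with a median of 0.00019 in the authors' deposited table, against 47.0% above 0 and a median of -0.00080 over all genes. With CMV, 39 were above 0 and 10 below, with a median of 0.039, against 48.3% above 0 and a median of -0.00016 over all genes. Among genes at a mean count of 50 or more the shares above 0 were 48.5% with hTNNT2 and 52.2% with CMV. Subtracting the running median of genes with like mean counts gave 32 above and 16 below with hTNNT2 (median 0.015) and 37 and 12 with CMV (median 0.017). Subtracting trends in mean count, transcript length and GC content gave 25 above and 21 below with hTNNT2 (median 0.0015) and 23 and 23 with CMV (median 0.000013). The single-gene error was larger than these medians, the median SE of a member being 0.075 with hTNNT2 and 0.058 with CMV.

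Across all genes at a mean count of 50 or more, the log2 fold change was lower at higher mean counts with hTNNT2 (Spearman's rho -0.13) and higher with CMV (rho 0.14), as a description across genes, which are not independent. At a mean count of 20000, near that of a typical member, the running median of all tested genes was -0.020 with hTNNT2 and 0.022 with CMV. Among the 46 members with such counts, rho with mean count was -0.35 with hTNNT2 and 0.47 with CMV. The members' transcripts were short, with a median of 738 bases, against 3062 (hTNNT2) and 3069 (CMV) over all genes at those counts, and their rho of fold change with length was -0.46 with hTNNT2 and -0.021 with CMV. Median GC content was 50.5% for the members and 50.2% for all genes at those counts, and the members' rho of fold change with GC content was 0.41 with hTNNT2 and -0.19 with CMV. The part of abundance, length and GC content in the members' values was not tested beyond these subtractions.

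**Figure D3:**
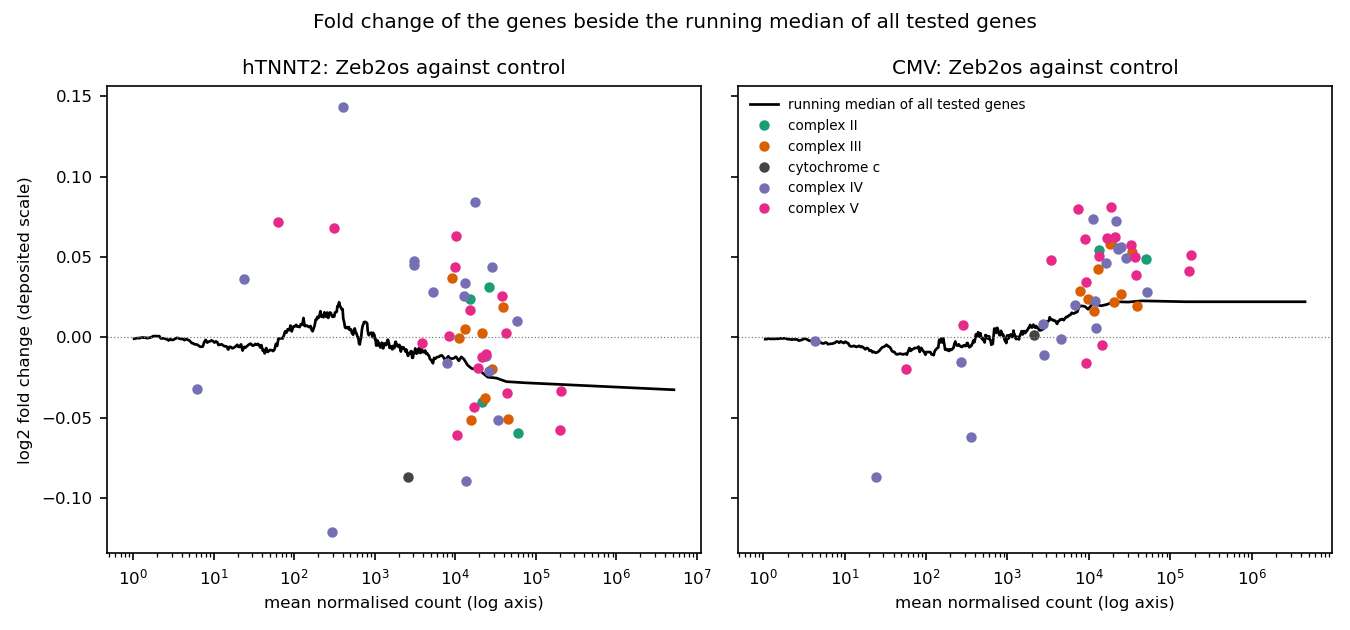
Log2 fold change of each member against its mean normalised count (log axis), with hTNNT2 on the left and CMV on the right, and the running median of all tested genes as a black line. The line lies below 0 at high counts with hTNNT2 (-0.020 at 20000) and above 0 with CMV (0.022), and 32 of 48 members lie above it with hTNNT2 and 37 of 49 with CMV, Cox8c not being drawn.

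In complex II all subunits lay above 0 with CMV within a narrow span. Sdha, the flavoprotein that oxidises succinate, had a log2 fold change of -0.059 (SE 0.074) with hTNNT2 and 0.049 (SE 0.047) with CMV in the authors' deposited tables. Sdhb, which carries electrons through iron-sulphur clusters, had a log2 fold change of 0.031 (SE 0.073) with hTNNT2 and 0.056 (SE 0.057) with CMV in the authors' deposited tables. These form the matrix arm of the complex. The membrane anchor Sdhc had a log2 fold change of -0.040 (SE 0.075) with hTNNT2 and 0.060 (SE 0.055) with CMV in these deposited tables. The other anchor, Sdhd, had a log2 fold change of 0.024 (SE 0.075) with hTNNT2 and 0.054 (SE 0.058) with CMV, as the authors' deposited tables list. The CMV values differed among the 4 genes by an SD of 0.0046, well under their median SE of 0.056, and the hTNNT2 values by an SD of 0.045.

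In complex III the 9 genes gave 4 values above 0 and 5 below with hTNNT2 (median -0.00041), and 9 above 0 with CMV (median 0.027), in the authors' deposited tables. Cyc1, the cytochrome c1 subunit, had a log2 fold change of -0.038 (SE 0.080) with hTNNT2 and 0.022 (SE 0.061) with CMV in the authors' deposited tables. Uqcrc1, a core protein and the complex III gene of highest mean count, had a log2 fold change of -0.051 (SE 0.078) with hTNNT2 and 0.020 (SE 0.055) with CMV in the authors' deposited tables. The small subunits made up both ends of the range. Uqcr10 had the highest log2 fold change with hTNNT2, 0.037 (SE 0.071), and Uqcrb the lowest, -0.051 (SE 0.074), in the authors' deposited table. With CMV, Uqcrh was highest, at 0.058 (SE 0.059), and Uqcrq lowest, at 0.016 (SE 0.064), in the authors' deposited table. Cycs had a log2 fold change of -0.087 (SE 0.078) with hTNNT2 and 0.0012 (SE 0.060) with CMV, as the authors' deposited tables list.

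Complex IV had the widest range with hTNNT2, and it held both ends of it. Of its tested genes 10 lay above 0 and 7 below with hTNNT2 (median 0.026), and 11 above and 7 below with CMV (median 0.014). Cox4i2 was highest with hTNNT2, at 0.14 (SE 0.075, p = 0.0577), and had a log2 fold change of -0.062 (SE 0.070, p = 0.377) with CMV in the authors' deposited tables. Cox4i1 had a log2 fold change of 0.010 (SE 0.076) with hTNNT2 and 0.028 (SE 0.054) with CMV in the authors' deposited tables. Cox7c was lowest with hTNNT2, at -0.12 (SE 0.076, p = 0.110) in the authors' deposited DESeq2 table, subject to the shared sequence described above. Cox7b, the single member on the X chromosome, had a log2 fold change of -0.012 (SE 0.069) with hTNNT2 and 0.072 (SE 0.058) with CMV in the authors' deposited tables. Cox6b1, which sits where complex IV monomers meet, had a log2 fold change of 0.044 (SE 0.074) with hTNNT2 and 0.056 (SE 0.059) with CMV, as the authors' deposited tables list. Cox7a2l, which helps complexes III and IV associate, had a log2 fold change of 0.028 (SE 0.073) with hTNNT2 and -0.0011 (SE 0.061) with CMV in the authors' deposited tables. Cox6b2 had a log2 fold change of 0.037 (SE 0.054) with hTNNT2 and the lowest of all members with CMV, -0.087 (SE 0.052, p = 0.0937), on a mean count of 24.1 in the authors' deposited table. Cox7b2, at mean counts of 6.26 with hTNNT2 and 4.40 with CMV, had log2 fold changes of -0.032 (SE 0.039) and -0.0022 (SE 0.023), as the authors' deposited tables list them.

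The muscle and ubiquitous isoforms were then set against each other within each table. Cox6a2, the muscle form of a subunit that tunes complex IV activity, was at -0.090 (SE 0.082) with hTNNT2, and Cox6a1 at 0.047 (SE 0.078), on the log2 scale of the authors' deposited table, a difference of -0.14 (SE 0.11, 95% interval -0.36 to 0.085). With CMV the authors' deposited log2 fold changes were 0.0055 (SE 0.061) for Cox6a2 and -0.011 (SE 0.069) for Cox6a1, a difference of 0.016 (95% interval -0.16 to 0.20). The muscle form of subunit 6a thus lay below its partner with hTNNT2 and within 0.016 of it with CMV. With hTNNT2 the authors' deposited log2 fold changes were 0.084 (SE 0.075) for Cox7a1 and 0.026 (SE 0.072) for Cox7a2, a difference of 0.059 (95% interval -0.15 to 0.26). With CMV the authors' deposited log2 fold changes were 0.047 (SE 0.064) for Cox7a1 and 0.073 (SE 0.065) for Cox7a2, a difference of -0.027 (95% interval -0.21 to 0.15). Both forms of subunit 7a lay above 0 under either promoter. In subunit 8 the authors' deposited log2 fold changes with hTNNT2 were 0.034 (SE 0.076) for Cox8b and 0.045 (SE 0.078) for Cox8a, a difference of -0.011 (95% interval -0.23 to 0.20). With CMV the authors' deposited log2 fold changes were 0.023 (SE 0.063) for Cox8b and 0.0083 (SE 0.066) for Cox8a, a difference of 0.014 (95% interval -0.16 to 0.19). The 3 muscle forms did not share a direction with hTNNT2, and each of the 6 intervals included 0. The intervals treat the 2 genes of a pair as independent, since their covariance within mice is not known, and they do not show that the isoforms act alike.

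**Figure D4:**
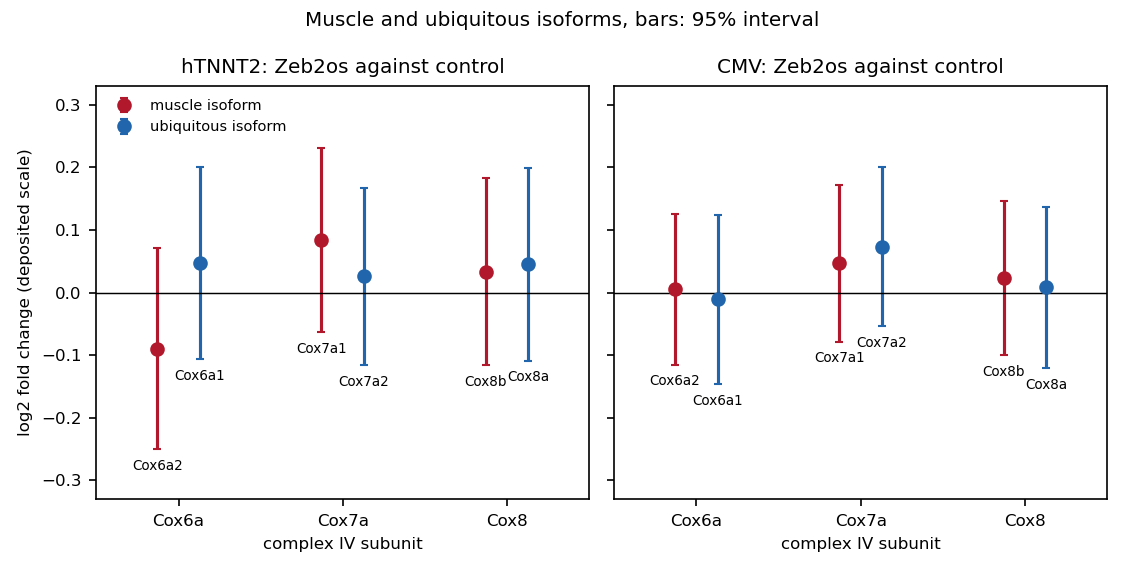
Log2 fold change of Zeb2os against control for the muscle (red, left of each pair) and ubiquitous (blue) isoforms of complex IV subunits 6a, 7a and 8, with hTNNT2 on the left and CMV on the right, bars giving the 95% interval. The intervals of the 2 forms overlap in every pair, and the widest gap is that of Cox6a with hTNNT2 (-0.14).

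Complex V leaned above 0 with CMV in most of its genes. Of its 17 genes, 8 lay above 0 and 9 below with hTNNT2 (median -0.0038), and 14 above and 3 below with CMV (median 0.050), in the authors' deposited tables. The F1 part, here the head that makes ATP with the central stalk, had 2 of 5 genes above 0 with hTNNT2 (median -0.033). With CMV it had 4 of 5 (median 0.041). Atp5b had a log2 fold change of -0.033 (SE 0.076) with hTNNT2 and 0.051 (SE 0.050) with CMV in the authors' deposited tables. The membrane part and peripheral stalk had 6 of 12 genes above 0 with hTNNT2 (median -0.0015) and 10 of 12 with CMV (median 0.054). Atp5h, a subunit of the peripheral stalk, had a log2 fold change of -0.012 (SE 0.075) with hTNNT2 and the highest of the complex with CMV, 0.081 (SE 0.053, p = 0.127), in the authors' deposited tables. The c ring genes held both ends with hTNNT2, with Atp5g2 at 0.072 (SE 0.077) and Atp5g1 at -0.061 (SE 0.081), and were at -0.020 (SE 0.054) and -0.016 (SE 0.059) with CMV, on the log2 scale of the authors' deposited tables. Atp5g2 had a mean count of 63.8 with hTNNT2 and 56.9 with CMV in those tables.

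The design repeats the contrast under both promoters in different mice, so the hTNNT2 log2 fold change was tested against that of CMV. This takes the deposited scales of the 2 fits as the same, which was not tested. The median SE of all genes at mean counts of 200 to 1000 was 0.078 with hTNNT2 and 0.068 with CMV. No member differed at a Benjamini-Hochberg adjusted p under 0.05 over the 20754 genes tested in both tables, where 0.00482% of all genes did, Zeb2os alone. At an unadjusted p under 0.05 there was 1 of 48 members, against 2.65% of all genes. This was Cox4i2, whose difference was 0.21 (SE 0.10, 95% interval 0.0033 to 0.41, unadjusted p = 0.0464, adjusted p = 1.00). Differences ran from -0.11 for Sdha to that of Cox4i2, with a median of -0.042. Below 0 were 37 members and above 0 were 11, against 50.9% of all genes below 0, 52.1% of those at a mean count of 50 or more in both tables, and a median of -0.00051 over all genes. With the running median of mean counts subtracted in each table, 24 members lay below 0 and 24 above (median -0.0032), and with the 3 trends subtracted 24 and 22 (median -0.0055). By complex, 4 of 4 genes of complex II lay below 0, 8 of 9 of III, 10 of 17 of IV and 14 of 17 of V. Across the 48 members, hTNNT2 and CMV log2 fold changes had a Pearson's r of -0.12 and a Spearman's rho of 0.0049, as a description over genes that share the libraries of each table.

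Among genes that build or accompany these complexes, 0 were called at an adjusted p under 0.05. The shares of all genes passing were 0.0385% with hTNNT2 and 0.00469% with CMV. At an unadjusted p under 0.05 these shares were 3.92% and 1.67%. Of 38 assembly factors of complexes II to V, 0 passed an adjusted or an unadjusted p of 0.05 with either promoter in the authors' deposited tables, where Sco2 had no p-value with hTNNT2. Those with the largest statistics were Cox19, a copper-related factor of complex IV, at 0.13 (SE 0.076) with hTNNT2 and 0.086 (SE 0.057) with CMV, and Sdhaf3, a complex II factor, at -0.086 (SE 0.083) and -0.14 (SE 0.071), all from the authors' deposited tables. Coa7 of complex IV followed at -0.12 (SE 0.075) with hTNNT2 and 0.061 (SE 0.062) with CMV, and Ttc19 of complex III at -0.088 (SE 0.054) and -0.025 (SE 0.055), again from the authors' deposited tables. Genes named Nduf, most of them subunits of complex I, had 16 log2 fold changes above 0 and 24 below with hTNNT2 (median -0.0066) and 37 above and 3 below with CMV (median 0.035), and 1 of them was at an unadjusted p under 0.05 with hTNNT2 and 0 with CMV.

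Markers of the cells of the heart were set beside these values. All 9 cardiomyocyte markers were abundant, with mean counts that ran from 19699 to 1935770 with hTNNT2 and from 18135 to 1645870 with CMV in the authors' deposited tables. Of those 9 markers, 0 lay above 0 with hTNNT2 (median -0.051, Ryr2 alone at an unadjusted p under 0.05) and 8 with CMV (median 0.052). Smooth muscle and pericyte markers had 6 of 6 above 0 with hTNNT2 (median 0.11, 0 at an unadjusted p under 0.05). With CMV 0 of 6 lay above 0 (median -0.064). Fibroblast markers had 6 of 7 above 0 with hTNNT2 (median 0.16, 4 at an unadjusted p under 0.05) and 5 of 7 with CMV (median 0.011), and macrophage markers 8 of 8 (median 0.16, 4 at an unadjusted p under 0.05 and 1 passing the authors' test) and 4 of 8 (median 0.0045). Endothelial markers had 3 of 6 above 0 with hTNNT2 (median 0.0022) and 0 of 6 with CMV (median -0.035), and lymphocyte markers 1 of 7 (median -0.035) and 6 of 7 (median 0.044). Skeletal fibre markers had mean counts of at most 43.5, with 1 of 6 above 0 with hTNNT2 and 0 of 6 with CMV, and adipocyte markers at most 389, with 5 of 6 and 3 of 6. At an unadjusted p under 0.05 with hTNNT2 there were also 1 lymphocyte, 1 skeletal fibre and 1 adipocyte marker, and 0 endothelial ones, and with CMV 1 adipocyte marker and 0 of the other cell types. Over all genes, 3.92% were at an unadjusted p under 0.05 with hTNNT2 and 1.67% with CMV. The authors' test was passed by 0.0385% of all genes with hTNNT2. No marker of any list was at a mean count of 0. In bulk tissue, fewer cells of a type and less RNA per cell cannot be told apart, and the part of cell makeup in the members' values was not tested.

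Sex was unequal between arms, with 3 males of 5 in hTNNT2 Zeb2os against 0 of 5 in hTNNT2 control, and 1 of 5 in CMV Zeb2os against 2 of 5 in CMV control. X-linked genes that escape inactivation, which are higher in females, had 0 of 4 values above 0 with hTNNT2 (median -0.18, 2 at an unadjusted p under 0.05) and 4 of 4 with CMV (median 0.036) in the authors' deposited tables. The share of all genes at an unadjusted p under 0.05 with hTNNT2 was 3.92%. In hTNNT2 the male mice were all in the Zeb2os arm, while females were in both. The part of sex in the members' values was not tested, since that needs values per mouse.

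**Figure D5:**
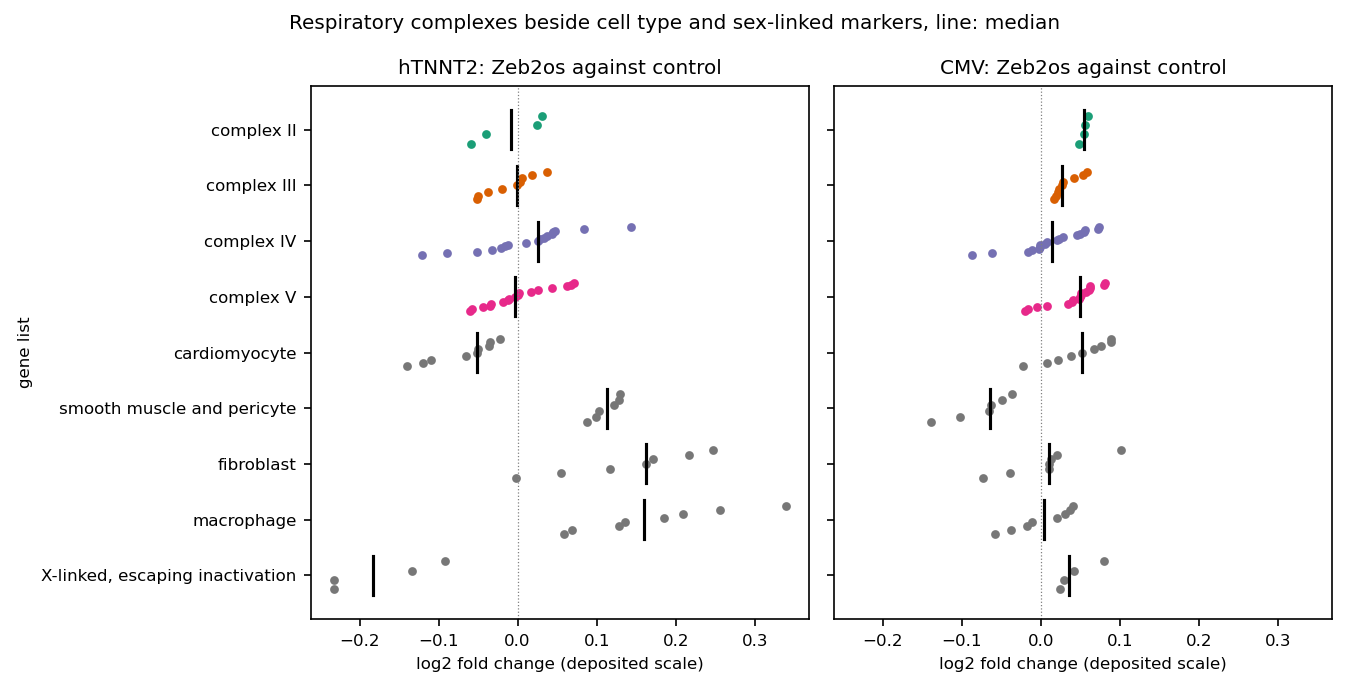
Log2 fold change of Zeb2os against control for the genes of each respiratory complex (coloured) and of marker lists (grey), with hTNNT2 on the left and CMV on the right, each point being a gene and each vertical line the median of the list. Cardiomyocyte markers have medians of -0.051 with hTNNT2 and 0.052 with CMV, and smooth muscle and pericyte markers of 0.11 and -0.064.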

How the data were processed

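Total RNA of the heart apex was depleted of ribosomal RNA with KAPA HyperPrep RiboErase, per the labels' protocols. Trim Galore, DESeq2, GRCm38 and mm10 are named in the submitters' processing notes. The sources used here name no aligner, counter, strand setting or version. The authors deposited 1 table of their own comparison per promoter, each over 10 mice. Per the file headers these hold a mean normalised count (a signal), a log2 fold change with its SE, a Wald statistic (a score), a p-value and an adjusted p-value. In all rows the sign of the deposited statistic was opposite to that of the deposited log2 fold change, and a positive log2 fold change, as for Zeb2os, was read as higher with Zeb2os. The sources used here give no library totals. Deposited mean counts summed to 51284500 with hTNNT2 and 44295600 with CMV. The number of value columns left unmapped was 0.

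A gene was called at the authors' adjusted p under 0.05. For the difference between promoters, the SE was the root of the sum of both squared SEs, with a 2-sided normal p adjusted by the Benjamini-Hochberg method. The code was run on data simulated with normal errors of the deposited SE. Those are the errors the test assumes, so the run cannot show whether the deposited values have them. Intervals are normal 95% intervals on the deposited scale. Lists were described by counts and medians without a test. Coordinates, transcript lengths (longest principal transcript), GC content and shared stretches of 50 bases came from GENCODE release M21 on GRCm38, and promoter windows from RefSeq on GRCm38.p6. Running medians ran over genes ordered by mean count. The members and lists were chosen with earlier results of these data known. Named members were all isoforms of Cox4i, Cox6a, Cox6b, Cox7a, Cox7b and Cox8, all Sdh genes, Cyc1 and Cycs, those at an unadjusted p under 0.05, and, per complex, the gene of highest mean count and those of highest and lowest fold change with a mean count of at least 50. Of assembly factors, up to 4 with the largest statistics were named. Replicates are separate mice per the labels. Alternatives changed the genes tested, null, centring, threshold, trends and membership. Python 3.11.15, numpy 2.4.6, pandas 2.3.3, scipy 1.17.1 and matplotlib 3.10.9 were used.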

Additional observations from a re-analysis of the deposited data

How the results depend on the processing

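No member was called under any alternative run, which were adjustment over every deposited p-value (single comparisons only), genes at a mean count of 50 or more alone, an empirical null, centring on the median gene and an adjusted p under 0.1. The lowest adjusted p of a member was 0.918 with hTNNT2 and 0.754 for the difference between promoters, both under the empirical null, and 0.9995 with CMV. Over all genes the empirical null raised calls to 17 from 7 with hTNNT2, to 13 from 1 with CMV and to 13 from 1 for the difference. At a mean count of 50 or more the calls were 12, 2 and 1, at an adjusted p under 0.1 they were 17, 2 and 2, and centring gave 2 with CMV. The median log2 fold change of members ran from -0.0038 (without complex IV) to 0.015 (running median subtracted) with hTNNT2, where the main median was 0.00019. With CMV it ran from 0.000013 (3 trends subtracted) to 0.048 (without complex IV), around a main 0.039, and 16 members changed sign at the low end. Leaving out members with over 40% shared stretches, chosen after the data were seen, gave 0.0016 with hTNNT2, 0.039 with CMV and -0.037 for the difference. Of the isoform differences, Cox8 with CMV turned to -0.0014 from 0.014 once the running median was subtracted, and Cox6a with CMV was 0.0013.

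No paired analysis was possible because the tables hold no values per mouse, and leaving out single mice was not run for the same reason. Precision is limited by 5 mice per group, and intervals rest on the deposited SE alone.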
